A study of Morone chrysops with 54 samples.

Results

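The transcripts described here are 4 of the 20914 contigs of the white bass transcriptome: hepcidin (GAZY01116470.1), hepcidin 2 variant 2 (GAZY01094059.1), ferroportin, annotated as solute carrier family 40 member 1 (GAZY01172950.1), and ceruloplasmin (GAZY01166858.1). They were chosen by contig identifier, from contigs that differed between a test diet and the control in these same libraries: ferroportin with Diets 2, 5 and 6, hepcidin 2 variant 2 with Diets 5 and 6, and hepcidin and ceruloplasmin with Diet 6. Their differences from Diet 1 in those 3 diets are therefore given as a description, with calls counted only beside the background and no p-value. Tests are read for Diets 3 and 4 and for the variation between fish of the same diet, which the choice did not use.

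Juvenile white bass (Morone chrysops) were fed 1 of 6 diets from replicate tanks, and 1 RNA sequencing library was made from the liver of each of 54 fish, 9 per diet. Diet 1 was the fish meal control, and it also held soybean meal, more than Diets 3, 4 and 6 did. Diet 2 kept a reduced share of fish meal and held more soybean meal than Diet 1. Diet 3 combined the reduced share with poultry by-product meal and soybean meal, and Diet 4 held poultry by-product and soybean meal without fish meal. Diet 5 was made of plant proteins throughout, and Diet 6 of Pro-Cision, a commercial protein blend, with soybean meal and no fish meal. All fish were juveniles of this species, and the fish of a diet came from shared tanks.

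Hepcidin is a small peptide hormone made mainly by the liver. In mammals it binds ferroportin, the protein that exports iron from cells, and causes it to be taken into the cell and degraded, so that less iron reaches the plasma. Ceruloplasmin is a copper-carrying ferroxidase of the plasma that oxidises exported iron for loading onto transferrin. Several fish carry more than 1 hepcidin gene, and in European sea bass 1 type responds to iron while others act mainly as antimicrobial peptides. Which type each of the 2 contigs here belongs to was not tested.

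The study designed a primer pair for RT-qPCR on the hepcidin contig, and it is shown because it is the stretch of sequence listed beside this contig rather than beside hepcidin 2 variant 2. The table that lists the pair gives a direction label that does not settle the orientation, so the letters are printed in the order listed there, for a product of 150 bases.
forward primer, hepcidin: ggcctgacacccatgagaaa
reverse primer, hepcidin: cagagccctccagaatgcaa

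Total counts were 5964761 to 17336918 in 53 libraries, with a median of 11378553. The remaining library, Diet 5 replicate 7, held 755 counts and was left out of all values below, so that Diet 5 had 8 fish. Levels are CPM, the count divided by the normalised library total and scaled to 1000000 counts. No contig length was available, so levels are compared between fish and never between contigs. All 4 transcripts had counts in each of the 53 fish, from 11 to 20618 for hepcidin, 5 to 395 for hepcidin 2 variant 2, 8370 to 95821 for ferroportin and 10297 to 70491 for ceruloplasmin. Counting error was thus largest for hepcidin 2 variant 2. Across the 53 fish the highest level was 934 times the lowest for hepcidin, 122 times for hepcidin 2 variant 2, 24.4 times for ferroportin and 4.46 times for ceruloplasmin.

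**Figure D1:**
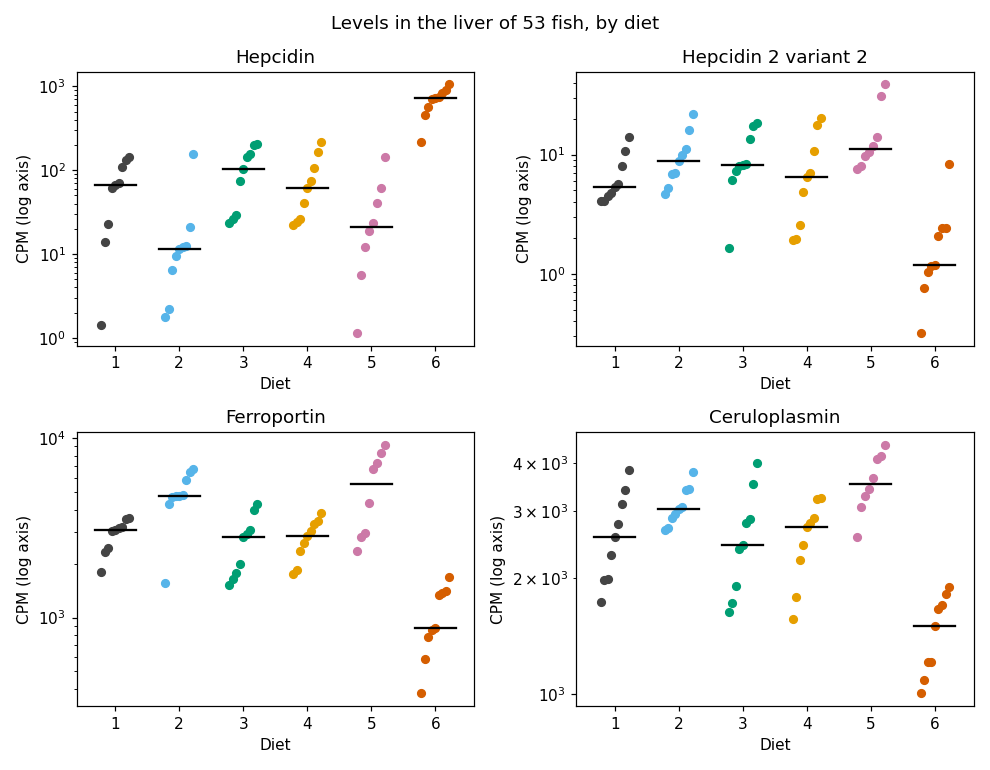
CPM (log axis) of the 4 transcripts in each of 53 fish, by diet, with points ordered by level within a diet and bars at the median. In Diet 6, hepcidin lay above every other fish (219 CPM or more), while ferroportin, ceruloplasmin and hepcidin 2 variant 2 had their lowest medians.

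The hepcidin contig was highest in Diet 6. The control fish ranged from 1.42 to 144 CPM with a median of 66.0. In Diet 6 the lowest fish had 219.5, the median was 726 and the highest fish had 1060. All 9 fish of Diet 6 lay above the other 44 fish, the highest of which had 219.2 CPM, so the groups did not overlap, although the margin was narrow at that end. By library totals without TMM factors the same gap was 300.1 against 254 CPM, and with DESeq2 size factors all 9 fish also lay above the other 44. The share of all contigs that separated Diet 6 from all other fish, or from the control fish alone, was not counted, for this or the contigs below. Against Diet 1 hepcidin was 9.74-fold higher in Diet 6, a log2 fold change of 3.28 with a standard error (SE) of 0.54.

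The other diets gave hepcidin levels that overlapped with the control. The lowest, median and highest fish had 1.78, 11.4 and 155 CPM in Diet 2. Of the 9 fish in Diet 2, 8 lay below the control median, and replicate 7 alone lay above every control fish. In Diet 5 the values were 1.13, 21.3 and 144 CPM, with 7 of 8 fish below the control median. The log2 fold changes were -1.41 (SE 0.76) in Diet 2 and -0.87 (SE 0.72) in Diet 5. Each was made smaller by 1 fish, with -2.83 in Diet 2 without replicate 7 and -1.58 in Diet 5 without replicate 9. With any 1 fish left out the values stayed negative, up to -1.20 in Diet 2 and -0.67 in Diet 5. In Diet 5 the direction is opposite to that in the study's comparison of RNA sequencing with RT-qPCR, which gives this contig as higher by both. The study's list of differing contigs for Diet 5 instead holds hepcidin 2 variant 2, so its own records name different contigs there. The reason for the opposite direction was not tested. Diet 3 fish had 23.4, 104 and 204 CPM, and Diet 4 fish had 22.3, 60.7 and 219 CPM. By median the order was Diet 6, 3, 1, 4, 5 and 2, and only the step from Diet 6 to Diet 3 separated neighbours whose ranges did not overlap.

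Variation between fish of the same diet was wide for hepcidin. The SD of log2 CPM was 2.12 in Diet 1, 1.87 in Diet 2 and 2.14 in Diet 5, against 1.28 in Diet 3, 1.22 in Diet 4 and 0.67 in Diet 6. The lowest control fish, replicate 7, differed from the highest, replicate 6, by 102 times. Single fish added to the SD of Diets 1 and 2. Diet 1 replicate 7 had 1.42 CPM from 14 counts, with the next control fish at 13.8 CPM. Diet 2 replicate 7 had 155 CPM, with the next fish of that diet at 20.8 CPM. The SD without these fish was not computed, so wide variation is not read as a trait of these diets.

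Hepcidin 2 variant 2, the less abundantly counted of the 2 hepcidin contigs, ran the other way in Diet 6. Control fish had 4.08 to 13.96 CPM with a median of 5.36. In Diet 6 the lowest fish had 0.32, the median was 1.18 and the highest, replicate 4, had 8.36 CPM. Of these 9 fish, 8 lay below every control fish, and replicate 4 lay within the control range. The log2 fold change against Diet 1 was -1.64 (SE 0.45), or 3.12-fold lower, and -2.26 without replicate 4.

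In Diet 5 hepcidin 2 variant 2 was at its highest. The fish had 7.55, 11.1 and 38.7 CPM as lowest, median and highest, and all 8 lay above the control median, although only 3 lay above every control fish. The log2 fold change was 1.26 (SE 0.35). Diets 2, 3 and 4 had medians of 8.87, 8.11 and 6.44 CPM and overlapped widely with the control. By median the order was Diet 5, 2, 3, 4, 1 and 6, and the ranges of all neighbours overlapped.

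Ferroportin, the iron exporter, was lowest in Diet 6 and highest in Diets 5 and 2. Control fish had 1804, 3093 and 3579 CPM as lowest, median and highest. In Diet 6 the fish had 377, 878 and 1675 CPM, and all 9 lay below every control fish. Of these, 8 also lay below each of the 44 fish of the other diets (5 by library totals alone). By library totals the ranges of Diet 6 and the control overlapped. The log2 fold change was -1.52 (SE 0.23), or 2.87-fold lower.

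In Diet 2 ferroportin had a lowest value of 1561, a median of 4759 and a highest value of 6752 CPM. In 8 of the 9 fish it lay above every control fish, and in replicate 7 it lay below every control fish. That fish was also the one with the highest hepcidin level of the diet, 155 CPM. The log2 fold change was 0.76 (SE 0.20) over the 9 fish and 0.88 without replicate 7. In Diet 5 the values were 2352, 5560 and 9218 CPM, with 5 of 8 fish above every control fish. The other 3 lay below the control median but within the control range. The log2 fold change there was 0.91 (SE 0.25). The medians of 2808 CPM in Diet 3 and 2831 CPM in Diet 4 were close to the control, and by median the order was Diet 5, 2, 1, 4, 3 and 6, with overlapping ranges at each step.

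Ceruloplasmin, the plasma ferroxidase, varied least. Control fish had 1733, 2556 and 3839 CPM as lowest, median and highest. In Diet 6 they had 1002, 1506 and 1895 CPM, all 9 below the control median and 7 of them below every control fish (4 by library totals alone). The log2 fold change was -0.88 (SE 0.17), or 1.84-fold lower. TMM factors over the 53 libraries were 1.05 to 1.37 in Diet 6 and 0.85 to 1.01 in Diet 1. By library totals alone this decrease, and those of ferroportin and hepcidin 2 variant 2 in Diet 6, would be smaller. Those folds were not computed. In Diet 5 the fish had 2560, 3531 and 4467 CPM of ceruloplasmin, all 8 above the control median, with a log2 fold change of 0.44 (SE 0.16). In Diet 2 all 9 fish, at 2671 to 3779 CPM, lay above the control median, with a log2 fold change of 0.25 (SE 0.14). The order by median was Diet 5, 2, 4, 1, 3 and 6, and neighbours overlapped throughout.

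**Figure D2:**
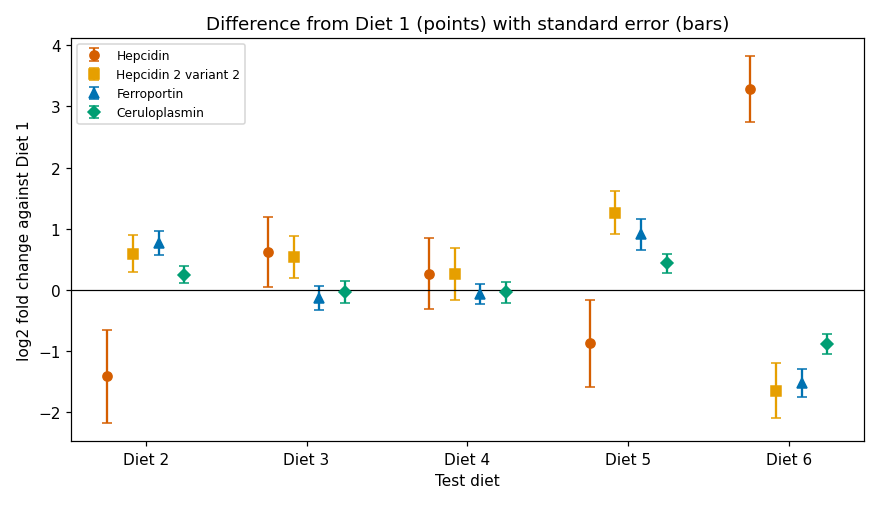
Log2 fold change of the 4 transcripts against Diet 1 for Diets 2 to 6 (points), with standard errors (bars). Diet 6 combines the highest hepcidin value (3.28) with negative values for the other 3 transcripts, and the points of Diets 3 and 4 lie within 2 standard errors of 0.

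A contig was called where the edgeR quasi-likelihood test gave a Benjamini-Hochberg adjusted p under 0.05 and the change exceeded 1.5-fold. In Diet 2, 0 of the 4 transcripts were called, against a background of 0.0438% of the 9130 contigs tested. At an unadjusted p under 0.05 and a change over 1.5-fold, 284 of those contigs passed. DESeq2 called 52, ferroportin among them. In Diet 5, hepcidin 2 variant 2 and ferroportin were called, against 5.20% of 9333 contigs. With the exocrine pancreas score as a covariate, neither was called in Diet 5, and leaving out any 1 of 11 fish lost 1 or both calls. In Diet 6, hepcidin, ferroportin and ceruloplasmin were called, against 1.14% of 9783 contigs, and hepcidin 2 variant 2 was called as well without Diet 6 replicate 4. Nothing is read from these counts, since the transcripts were selected on the same contrasts.

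Diets 3 and 4 were not used in the choice and could be tested, although both share the control fish. With Diet 3, 0 of the 4 transcripts were called by edgeR, against 0% of 9339 contigs. The log2 fold changes were 0.62 (SE 0.57) for hepcidin, 0.53 (SE 0.34) for hepcidin 2 variant 2, -0.13 (SE 0.20) for ferroportin and -0.03 (SE 0.18) for ceruloplasmin, all with an adjusted p of 0.998. At an unadjusted p under 0.05 and a change over 1.5-fold, 211 contigs passed and none of the 4 did. DESeq2 called 2 contigs, neither of them a member of this group. With Diet 4, 0 of 4 were called by edgeR, against 0% of 9387 contigs. The log2 fold changes were 0.26 (SE 0.58) for hepcidin, 0.26 (SE 0.42) for hepcidin 2 variant 2, -0.06 (SE 0.16) for ferroportin and -0.04 (SE 0.17) for ceruloplasmin, with adjusted p from 0.903 to 0.965. There, 306 contigs passed at an unadjusted p under 0.05 and a change over 1.5-fold, and none of the 4 did. DESeq2 called 65 contigs, none of them a member of this group.

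Diet 4 differed from Diet 3 in holding no fish meal, but also in more poultry by-product meal and other shifts in ingredients such as oils, and the 2 diets share no fish. None of the 4 transcripts was called between them by edgeR, against 0% of 9545 contigs. Of these contigs, 150 passed at an unadjusted p under 0.05 and a change over 1.5-fold, and 0 were called by DESeq2. For ferroportin the difference of Diet 4 from Diet 3 was 0.06 on the log2 scale, and 2 SE on either side of it spanned -0.35 to 0.47. For ceruloplasmin it was -0.02, spanning -0.38 to 0.34. For hepcidin it was -0.36, spanning -1.37 to 0.65, and for hepcidin 2 variant 2 -0.27, spanning -1.18 to 0.64. The 2 hepcidins could therefore differ by more than 1.5-fold between these diets without being detected at this number of fish.

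Between test diets, Diet 6 stood apart from the other 4 in the same directions, with the Diet 6 fish common to these contrasts. Hepcidin was higher in Diet 6 by 2.68 (against Diet 3) to 4.73 (against Diet 2) on the log2 scale. The log2 difference of Diet 6 from the other test diets was -1.39 (Diet 3) to -2.43 (Diet 5) for ferroportin. It was -0.82 (Diet 4) to -1.31 (Diet 5) for ceruloplasmin and -1.89 (Diet 4) to -2.90 (Diet 5) for hepcidin 2 variant 2.

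Whether the 4 transcripts move together from fish to fish is a question apart from diet, and it was asked after each diet's mean log2 CPM had been taken out, over 53 fish. Of the 6 pairs, hepcidin and ferroportin had the strongest relation, and it was inverse. Pearson's r was -0.54 (permutation p = 2e-05, adjusted over the 6 pairs p = 0.00012) and Spearman's rho was -0.57 (permutation p = 5e-05, adjusted p = 0.0003), from two-sided tests with 100000 permutations within diets. Ferroportin was lower by 0.19 on the log2 scale for each log2 unit of hepcidin. Among 9546 other contigs, 3 had a more negative r with hepcidin than ferroportin had, and 3 had a more negative r with ferroportin than hepcidin had. Without the 2 fish farthest from the hepcidin median, r was -0.55 (permutation p = 0.00013).

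**Figure D3:**
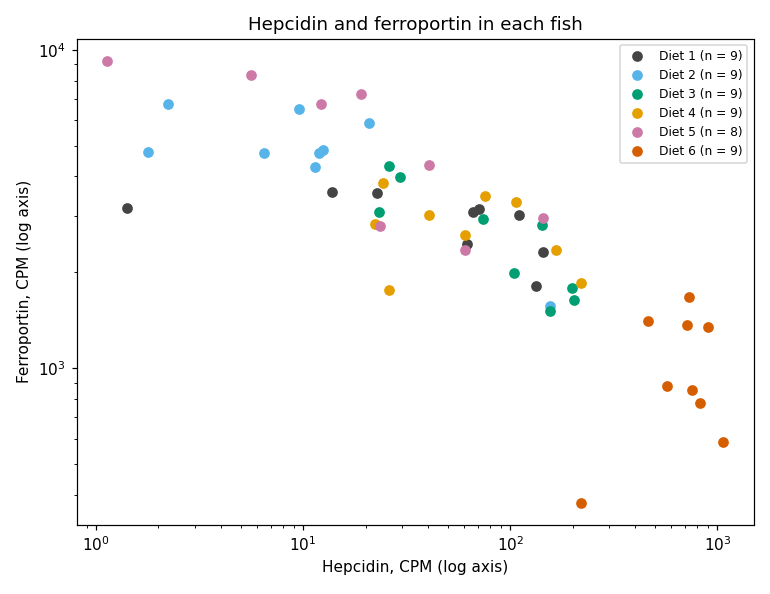
Hepcidin against ferroportin in each fish, in CPM on log axes, coloured by diet. Within Diets 1 to 5 fish with more hepcidin tended to have less ferroportin, with r from -0.28 to -0.87, while the 9 fish of Diet 6 sat apart at 219 to 1060 CPM of hepcidin.

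By diet the relation was uneven. The r of the log2 levels was -0.55 in Diet 1, -0.76 in Diet 2, -0.87 in Diet 3, -0.28 in Diet 4 and -0.82 in Diet 5. The matching rho was -0.82, -0.33, -0.88, -0.27 and -0.86, so the r of Diet 2 was larger than its rho, and replicate 7 stood apart there for ferroportin. In Diet 6 it was 0.43, with a rho of -0.15. There replicate 7 had the lowest level of both transcripts, 219.5 CPM of hepcidin and 377 CPM of ferroportin. The difference of Diet 6 from the other diets was not tested. Without Diet 6, an exclusion chosen after the data were seen, r was -0.68 (permutation p = 1e-05, the smallest the permutations can give). The L tag, one of 2 codes carried by each library, splits the fish into 3 sets, and within them r was -0.52, -0.48 and -0.43. With any 1 fish left out it stayed between -0.64 and -0.46.

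Single fish, chosen after their values were seen, show the pattern. In Diet 5, replicate 1 had 1.13 CPM of hepcidin and 9218 CPM of ferroportin, and replicate 4 had 60.6 and 2352 CPM. In Diet 3 the 3 fish of T tag 12 had 156 to 204 CPM of hepcidin and 1512 to 1778 CPM of ferroportin, whereas the 3 fish of T tag 19 had 26.0 to 74.2 and 2936 to 4302 CPM. The fish of the 2 tags did not overlap for either transcript. The share of all contigs that separated these 2 tags was not counted, so nothing is read from the separation. With T tag means taken out in place of diet means, r was -0.59 (permutation p = 0.00097), so the relation also held among fish that share a T tag.

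Hepcidin 2 variant 2 had no such relation with ferroportin, with an r of 0.07 (permutation p = 0.626, adjusted p = 0.626), nor with hepcidin, with an r of 0.09 (permutation p = 0.478, adjusted p = 0.573). Its r with ceruloplasmin was 0.39 (permutation p = 0.00848, adjusted p = 0.0254), with a rho of 0.36 (permutation p = 0.0109, adjusted p = 0.0326). The adjusted p of this rho was above 0.05 in each of the 8 alternatives (0.0538 to 0.267), and the relation rested on few fish. Without the 2 fish farthest from the median r was 0.34 (adjusted permutation p = 0.0794), and without the 2 that lay farthest within their own diet it was 0.27 (adjusted permutation p = 0.209). By diet r ran from -0.15 in Diet 2 to 0.66 in Diet 6, and without Diet 6 it was 0.31 (adjusted permutation p = 0.177). Within the 3 sets of the L tag it was 0.48, 0.62 and 0.35. Ceruloplasmin had an r of 0.21 with hepcidin (permutation p = 0.129, adjusted p = 0.259) and -0.12 with ferroportin (permutation p = 0.402, adjusted p = 0.573).

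**Figure D4:**
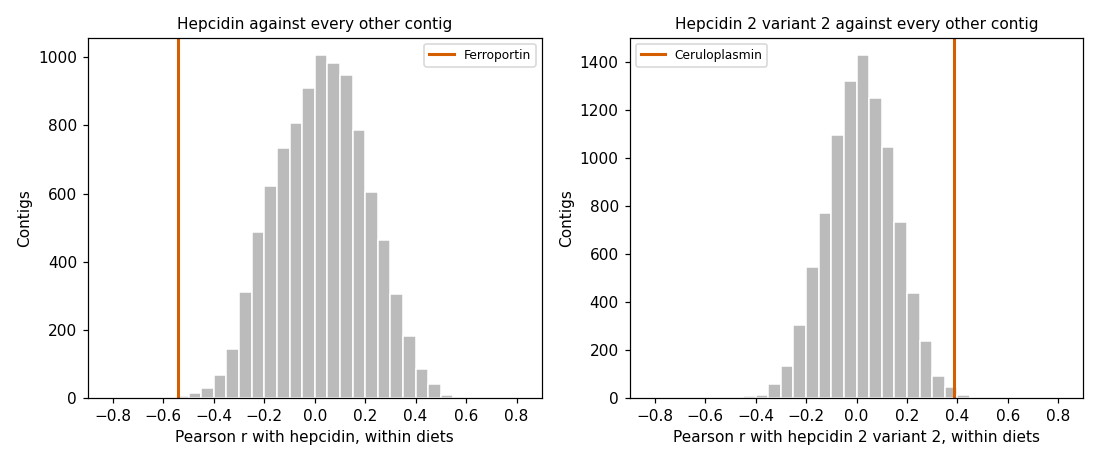
Number of contigs by Pearson's r, within diets over 53 fish, with hepcidin (left) and with hepcidin 2 variant 2 (right). The line for ferroportin, at -0.54, lies at the left end of the hepcidin distribution. The line for ceruloplasmin, at 0.39, lies towards the right end of the other, with 22 contigs beyond it. Counted among the values of r with ceruloplasmin (not drawn), 306 contigs lay beyond hepcidin 2 variant 2.

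Among 971 contigs with a name, those whose levels followed each transcript most closely within diets are given as a description over the 53 fish, which share their libraries. The names come from the study's supplementary lists, made on these same libraries. Over all contigs, named or not, 9 had a higher r with ferroportin than its highest named contig had. For hepcidin it was 6, for hepcidin 2 variant 2 it was 5 and for ceruloplasmin 0. Ceruloplasmin was followed by CD302 antigen, a C-type lectin receptor (r = 0.78), and by 2 plasma proteins of the complement system, complement factor H-like (0.75) and complement C4-like (0.74), and it had its lowest r with clusterin, a secreted chaperone (-0.47). Ferroportin was followed by mannose-specific lectin-like (0.61), by bcl-2-like protein 11 isoform X1, known in mammals to promote cell death (0.56), and by death-associated protein kinase 2 isoform X2 (0.55), and had its lowest r with inositol-3-phosphate synthase 1, which makes the precursor of inositol (-0.55). For hepcidin the highest values were those of gonadotropin-releasing hormone II receptor-like (0.53), integrator complex subunit 6-like (0.52) and fibrous sheath CABYR-binding protein-like (0.51), and the lowest was that of trafficking kinesin-binding protein 1-like (-0.55). For hepcidin 2 variant 2 they were D(4) dopamine receptor (0.44), FYN-binding protein 2 isoform X1 (0.43) and endoribonuclease LACTB2 (0.41), with protein FAM151B lowest (-0.43).

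The T tag marks 3 sets of 3 fish within each diet. What it stands for is not stated. None of the 4 transcripts was called by edgeR for the T tag within diets, against 0.251% of 9548 contigs. Hepcidin had an F of 2.60 (unadjusted p = 0.0118, edgeR adjusted p = 0.398), and the other 3 had adjusted p from 0.767 to 1. For the L tag 0 of 4 were called by edgeR, against 4.43% of 9548 contigs, with unadjusted p from 0.216 to 0.853.

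A list of 11 other contigs of iron and heme handling was taken from the study's lists of differing contigs, made on these same libraries, so its counts are no independent evidence of a direction. In Diet 5, 8 of 11 were called and all 8 were higher than in Diet 1, against 5.20% of all contigs called in either direction. The median log2 fold change of the list was 0.73, beside -0.02 over all contigs tested. The largest log2 fold change was that of heme oxygenase 2-like (1.67), an enzyme that breaks down heme, at 0 to 1.10 CPM in Diet 1 and 1.24 to 2.28 CPM in Diet 5, levels of few counts. Haptoglobin-like, which binds free hemoglobin, had 1.34, and erythroferrone-like, whose mammalian counterpart lowers hepcidin, had 1.16. Interleukin-6 receptor subunit beta-like, part of a receptor that raises hepcidin in mammals, had 0.73, and ferritin, middle subunit, which stores iron, had 0.72. Heme transporter hrg1-A-like had 0.71 and erythropoietin isoform X1, a hormone of red cell formation, had 0.65. Warm-temperature-acclimation-related 65-kDa protein, a heme-binding plasma protein of fish, had 0.60, at 15436 to 22011 CPM in Diet 5 and 8635 to 16449 CPM in Diet 1.

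In Diet 6, 1 of the 11 was called, against 1.14% of all contigs. It was transferrin receptor protein 1, through which cells take up transferrin-bound iron. It had 52.0 to 156 CPM in Diet 6 and 165 to 263 CPM in Diet 1, with no overlap at this scaling. By library totals without TMM factors the ranges overlapped. The share of all contigs that separated Diet 6 from Diet 1 was not counted, so nothing is read from the separation. The log2 fold change was -0.89 (SE 0.16). The list's median was 0.14, beside 0.01 over all contigs. In Diets 2, 3 and 4, 0 of 11 were called by edgeR, against 0.0438%, 0% and 0% of all contigs, with list medians of 0.46, 0.19 and 0.18 beside all-contig medians of -0.01, -0.00037 and 0.02.

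**Figure D5:**
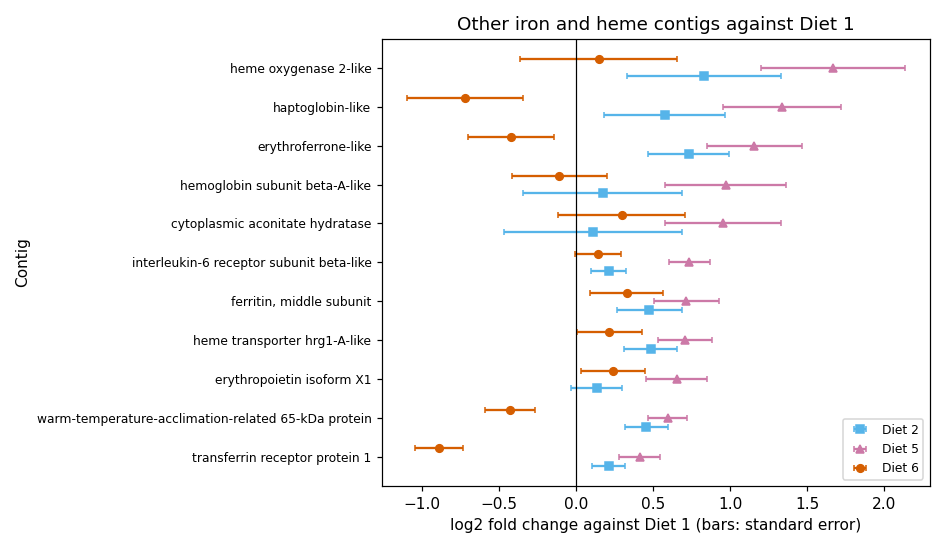
Log2 fold change against Diet 1 of the 11 other iron and heme contigs in Diets 2, 5 and 6 (points), with standard errors (bars). All 11 points of Diet 5 and all 11 of Diet 2 lie above 0, and in Diet 6 transferrin receptor protein 1 lies lowest at -0.89. Of the diets not drawn, all 11 values were also above 0 in Diet 4, and 7 of 11 in Diet 3. All these contrasts share the Diet 1 fish, so they are not independent of each other. The share of all contigs above 0 was not counted.

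From fish to fish within diets, some of this list had an r below -0.3 or above 0.3 with the 4 transcripts. Hepcidin had an r of -0.36 with erythroferrone-like and 0.33 with ferritin, middle subunit. Ferroportin had an r of -0.39 with haptoglobin-like, -0.38 with cytoplasmic aconitate hydratase and 0.35 with erythroferrone-like. Hepcidin 2 variant 2 had an r of 0.32 with haptoglobin-like. Ceruloplasmin had an r of 0.61 with haptoglobin-like, 0.52 with transferrin receptor protein 1, 0.50 with warm-temperature-acclimation-related 65-kDa protein and 0.41 with heme transporter hrg1-A-like. All other values lay between -0.3 and 0.3. Cytoplasmic aconitate hydratase was at 0 to 12.6 CPM, so its r rests on few counts. Over all 9547 other contigs the median absolute r was 0.13 with hepcidin, 0.09 with hepcidin 2 variant 2, 0.13 with ferroportin and 0.12 with ceruloplasmin. The share of all contigs beyond -0.3 or 0.3 was not counted, so nothing is read from how many of the list lay there. These values are descriptions without a test.

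The livers were checked for markers of hepatocytes and of other cells, since fewer cells of a type and less RNA per cell cannot be told apart in whole tissue. The markers, like the iron list, were named from the study's lists of differing contigs, so their sums are no independent evidence of cell content. None of the 5 hepatocyte markers was at 0 in every fish. In Diet 1 their summed level had a median of 35872 CPM (25863 to 52641). It was 21185 in Diet 5 (16606 to 22235) and 17642 in Diet 6 (12236 to 31609). The medians were 31109, 36287 and 32351 in Diets 2, 3 and 4, so the sum was lowest in the 2 diets with the most calls. Most of it was alpha-2-HS-glycoprotein-like, with medians of 26490, 12845 and 12123 CPM in Diets 1, 5 and 6. Bile salt export pump-like had medians of 240, 142 and 195 CPM there. The 7 exocrine pancreas markers, of which none was at 0 throughout, summed to a median of 113558 CPM in Diet 1 (12715 to 172721), 37475 in Diet 5 (6922 to 109110) and 22454 in Diet 6 (87.4 to 69546). In Diets 2, 3 and 4 their medians were 56114, 41696 and 30255 CPM, so the sum was below the control in all test diets. The 2 macrophage markers summed to medians of 11.8, 19.5 and 11.8 CPM in Diets 1, 5 and 6, and hemoglobin subunit beta-A-like, the erythrocyte marker, to 21.9, 28.1 and 13.2 CPM. Within diets the 4 transcripts had an r of -0.21 to 0.13 with the exocrine score and of -0.18 to 0.06 with the library total. With the mean log2 CPM of the hepatocyte markers r was 0.33 for ceruloplasmin, 0.18 for hepcidin 2 variant 2, 0.16 for ferroportin and -0.03 for hepcidin. That mean gives each marker equal weight, unlike the sum. It includes bile salt export pump-like isoform X1, a contig of few counts. In Diet 5 the SD of its log2 CPM was 2.76, against 0.48 for bile salt export pump-like. These r values may thus follow that contig more than the summed level. The part of the hepatocyte, macrophage and erythrocyte markers in the differences was not tested.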

How the data were processed

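The deposited values are estimated counts per contig, 1 table per fish, written as whole numbers without normalization between libraries. Per the labels and the study's methods, the authors trimmed reads with Trim Galore 0.6.5 and cutadapt 2.7, aligned them with Bowtie2 2.3.4.1 to a transcriptome of 20914 contigs, took the effective counts of eXpress 1.5.1, its estimates adjusted for fragment and length effects, and tested with DESeq2 1.24.0. eXpress shares reads between similar contigs, so the split of reads between the 2 hepcidin contigs is uncertain.

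CPM is the count divided by the library total times its TMM factor (over 53 libraries), scaled to 1000000, and log2 CPM used a prior count of 0.5. Diets were compared with edgeR 4.0.16 in R 4.3.3 (quasi-likelihood F-test, mean count of at least 5, adjusted p under 0.05, change over 1.5-fold), and the fits were tested on simulated data. Fish were the replicates, although 3 fish shared a tank, so p-values may be too small. Relations across fish used 100000 permutations within diets.

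Named contigs are the 4 members, the iron list, the cell markers and, for each member, the 3 named contigs with the highest and the 1 with the lowest r. The members and lists were chosen with earlier results of these data known. The 7 exocrine pancreas markers were averaged on the log2 CPM scale into an exocrine score. Alternatives were DESeq2 1.42.0, its size factors in edgeR, other filters on low counts, the library of 755 counts kept, 1 fit of 53 libraries, a block on the replicate number, covariates (L tag, exocrine score), T tag sums of counts, no fold threshold and each fish left out. For the relations they were a prior count of 1 without TMM, size factors, fish left out, and T tag means or the exocrine score taken out. Leaving out Diet 6, and leaving out the 2 fish farthest within their diet, were added after the data were seen.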

Additional observations from a re-analysis of the deposited data

Results flagged for a closer look

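In each diet the highest and lowest fish were compared with their neighbours on the log2 scale (Dixon's test at the 95% level) for the 4 transcripts and the 11 contigs of the iron list. Of 90 groups, 10 held a fish far from the others, and chance flags about 1 group in 20. Among the 4 transcripts, hepcidin 2 variant 2 was lowest in Diet 3 replicate 6 (1.66 CPM from 23 counts, next 6.14), and ferroportin was lowest in Diet 2 replicate 7 (1561 CPM, next 4286). In the iron list, transferrin receptor protein 1 was lowest in Diet 6 replicate 7 (52.0 CPM, next 94.8) and interleukin-6 receptor subunit beta-like was lowest in the same fish (8.29 CPM, next 17.1). Ferritin, middle subunit, was lowest in Diet 1 replicate 7 (576 CPM, next 1666) and in Diet 6 replicate 6 (837 CPM, next 1963), and highest in Diet 3 replicate 2 (2821 CPM, next 2058). Heme oxygenase 2-like had 0 counts in Diet 1 replicate 2 (next 0.20 CPM), and hemoglobin subunit beta-A-like had 0 counts in Diet 2 replicate 4 (next 4.03 CPM). Warm-temperature-acclimation-related 65-kDa protein was lowest in Diet 4 replicate 6 (7270 CPM, next 13274).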

How the results depend on the processing

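In Diet 2 the number of the 4 transcripts called went from 0 to 1 (ferroportin) with DESeq2, and from 0 to 1 over the fits without 1 fish, the 1 being without Diet 2 replicate 7. In Diet 5 it went from 2 to 1 with Diet 5 replicate 7 kept, 1 fit of 53 libraries, the L tag as a covariate or counts summed per T tag, to 0 with the exocrine score as a covariate, and lay between 0 and 2 without 1 fish. It was 0 without Diet 1 replicate 6, Diet 1 replicate 9 or Diet 5 replicate 5. In Diet 6 it went from 3 to 4 with DESeq2, 1 fit of 53 libraries or the exocrine covariate, and lay between 3 and 4 without 1 fish, the 4 being without Diet 6 replicate 4. Same-numbered fish correlated by -0.34 to 0.50, with a median of 0.07, and 14 of 53 correlated best with their own number. How many would do so by chance was not computed. The numbers follow the L tag in every diet, for which 4.43% of 9548 contigs were called. A part shared by fish of the same number was not tested further. Since not every pair correlated above 0.1, the main fits did not treat the fish as paired, and a block on the number was an alternative. With the replicate block, 1 transcript was called in Diet 5 and 4 in Diet 6, and 2 differences near 0 changed sign: hepcidin 2 variant 2 in Diet 4 against Diet 1 (-0.035) and ceruloplasmin in Diet 4 against Diet 3 (0.0059). Without 1 fish, the Diet 4 against Diet 3 difference ran from -0.014 to 0.18 for ferroportin and from -0.085 to 0.082 for ceruloplasmin. The relation of hepcidin and ferroportin passed its test in all 8 alternatives. That of hepcidin 2 variant 2 and ceruloplasmin had an r of 0.34 without the 2 fish farthest from the median, 0.27 without the 2 farthest within their diet, 0.40 with T tag means taken out and 0.31 without Diet 6, with adjusted p of 0.0794, 0.209, 0.0882 and 0.177, and its rho had an adjusted p above 0.05 in all 8. That of ferroportin and ceruloplasmin turned to 0.10 with T tag means taken out. The causes were not tested.

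Over all contigs, the calls in Diet 2 were 4 and became 52 with DESeq2, 14 with the L tag, 11 with the exocrine score, 2 with the block, 0 with T tag sums and 1 to 47 without 1 fish. In Diet 3 they were 0 and became 2 with DESeq2, 5 with the block and 1 with the L tag, and in Diet 4 they were 0 and became 65, 1 with the block and 2 with 1 fit. In Diet 5 they were 485 and became 755 with the block, 772 with no fold threshold and 293 to 809 without 1 fish. In Diet 6 they were 112 and became 254 with DESeq2, 206 with 1 fit, 235 with the exocrine score, 36 with T tag sums and 74 to 222 without 1 fish. The upper ends of the ranges without 1 fish (47 in Diet 2, 809 in Diet 5 and 222 in Diet 6) all came from leaving out the same control fish, Diet 1 replicate 7.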
